A study of Mus musculus with 3 samples.

Results

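Alveolar macrophages with little sign of oxidative stress were compared between a pool of mice that had breathed 1 ppm ozone and a pool that had breathed filtered air. Members were chosen by measured values. A cell barcode was taken as an alveolar macrophage if it had at least 5000 UMIs (unique molecular identifiers, each standing for 1 captured mRNA molecule), at least 300 genes, at most 10% of UMIs from mitochondrial genes, and at least 3 of 8 marker genes detected (Marco, Siglecf, Krt79, Ear2, Atp6v0d2, Bhlhe41, Chil3 and Pparg). Within each library the 3% of these cells with the largest share of UMIs from the oxidative stress genes Hmox1, Slc7a11 and Srxn1 were then left out. This kept 3188 of the 5307 barcodes of the air library (60.1%) and 2053 of the 3233 barcodes of the 1 ppm library (63.5%), so 5241 cells of 15809 barcodes in the series. Wild-type C57BL/6J mice aged 12 weeks were exposed for 3 hours and killed 22 to 24 hours later, and the cells washed out of their right lung lobes were sequenced by the droplet method. Each group was 1 library from 3 to 4 pooled mice, and the mice of a pool cannot be told apart. A further library from mice exposed to 1.5 ppm for 3 hours, from the same strain and age, gave 5277 cells by the same rule and is used only for values set beside those at 1 ppm. With 1 library a group there was no test: all intervals below are exact 95% intervals that cover counting error only, and a difference between the libraries may be one between pools, handling or exposure.

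Alveolar macrophages are the resident phagocytes of the airspace. They clear inhaled particles, dead cells and surfactant lipid, and their identity depends on the growth factor GM-CSF and on the lipid-sensing transcription factor PPAR-gamma, encoded by Pparg. Ozone reacts with the lipids and proteins of the lining fluid, and the products are known to induce the Nrf2 antioxidant programme, of which Hmox1 (haem oxygenase), Slc7a11 (the cystine importer) and Srxn1 (sulfiredoxin) are textbook targets. Metallothioneins, small cysteine-rich proteins that bind zinc and copper, respond to metal ions, oxidants and glucocorticoids.

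Genes that the rule did not use gave the same cell type as the label: the 8 further alveolar macrophage markers were at 173 CPM or more in both libraries, and they summed to 6210 CPM in air against 6216 CPM at 1 ppm, where CPM is a gene's UMIs in parts per 1e6 of all UMIs of the summed cells. Single markers moved both ways within these near equal sums. Car4 (186 and 411 CPM) and Lpl (2303 and 2471 CPM) were higher at 1 ppm. Mrc1 (1415 and 1265 CPM), Plet1 (1030 and 930 CPM), Ear1 (459 and 391 CPM), Cidec (222 and 173 CPM), Fabp1 and Itgax were lower. The T cell markers summed to 0.562 CPM in air against 1.85 CPM at 1 ppm, and those of B and NK cells to less. The neutrophil markers Ly6g and S100a9 stood at 0 and 0.17 CPM in air and at 0 and 0.03 CPM at 1 ppm. Others of that list were higher: Csf3r was at 32.3 and 24.4 CPM, Mmp8 at 20.0 and 17.5 CPM and S100a8 at 9.54 and 14.9 CPM. Markers of type 1 conventional dendritic cells summed to 485 CPM in air and 522 CPM at 1 ppm, led by Naaa (362 and 387 CPM). Those of airway epithelium summed to 315 and 213 CPM, led by Tppp3 (143 and 97.9 CPM). The members held 48031435 UMIs in air and 36144616 at 1 ppm, with medians of 13866 and 15972 UMIs a cell and of 4.12% and 3.95% mitochondrial UMIs. The mitochondrial limit took away 34.2% and 30.6% of all barcodes, against 9.07% at 1.5 ppm. The air and 1 ppm libraries shared 4 barcodes, 1 of them among the members. Fewer cells of a kind and less RNA per cell cannot be told apart in a summed level. The spread over cells is given for Mt1, Mt2, Car4, Fn1, Il1b and Apoc1, and the share of the top barcode for Bpifa1. For other single genes only summed levels, or their ratios within bands or other sets of cells, are given.

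Leaving out 3% of each library set a different limit in each. The highest stress share kept was 0.333% of UMIs in air and 0.0576% at 1 ppm, and the lowest share left out was 0.334% and 0.0589%. As a result 106 of the air cells kept (3.32%) lay above the limit of the 1 ppm library. The medians were close, at 0.0102% and 0.00894%, and 24.1% and 24.7% of the cells had no UMI of the 3 genes. The air set thus held more cells with a high stress share, so values are also given, where stated, with the 1 ppm limit of 0.0576% used in both libraries, a choice made after the data were seen, which kept 3082 air cells. Of the 71 named genes past 1.3-fold, 69 were past it on the same side with this limit, the exceptions being Hmox1 and Slc7a11, and 5 others came past it. The 71 include the rule's Hmox1, Slc7a11, Bhlhe41 and Pparg, and most were named for the size of their ratio. As all 2053 of the 1 ppm cells and 3082 of 3188 air cells were used again, this count adds little support. Among the rule's own genes, given only as a description, Hmox1 was at 137 CPM in air against 89.3 CPM after ozone and Slc7a11 at 17.4 and 9.35 CPM. Their log2 ratios of -0.61 and -0.90 became -0.13 and -0.06 with the common limit. Of the rule's markers Bhlhe41 went from 113 to 170 CPM and Pparg from 842 to 557 CPM, and their log2 ratios of 0.59 and -0.60 became 0.64 and -0.62.

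**Figure D1:**
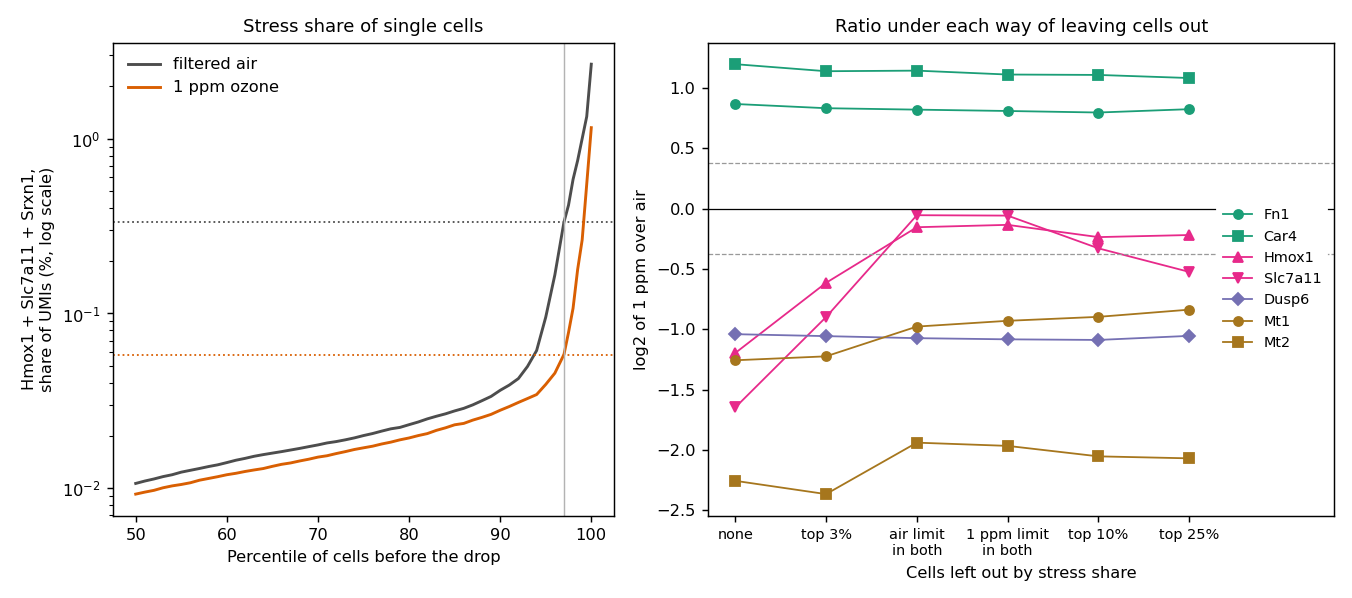
Left, share of UMIs from Hmox1, Slc7a11 and Srxn1 (percent, log axis) against the percentile of cells before any were left out, for filtered air (grey) and 1 ppm (orange); dotted lines mark the highest share kept, 0.333% and 0.0576%, and the grey vertical line the 97th percentile. Right, log2 ratio of 1 ppm over air for 7 genes under 6 ways of leaving cells out; dashed lines mark 1.3-fold. Car4, Fn1 and Dusp6 hardly moved, Hmox1 and Slc7a11 came close to 0 under a common limit, and Mt1 and Mt2 stayed below -0.8.

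Of 8371 genes with a mean of at least 10 CPM over both libraries, 230 (2.75%) were at least 1.3-fold higher after 1 ppm and 303 (3.62%) at least 1.3-fold lower, 6.37% in either direction. These shares are the background for every list count below. Of the same genes 3218 had a ratio above 1 and 5153 a ratio below 1, the background for counts of ratios above or below 1. The differences were small: 32 genes were at least 1.5-fold higher and 62 lower, and 6 and 10 reached 2-fold. All 533 counting intervals lay clear of a ratio of 1. At this depth the limits of 1.3-fold and 10 CPM all but fix that outcome, so it adds no support. The intervals of 108 higher and 147 lower genes also lay clear of 1.3-fold. Just inside the upper limit was Emb at 51.0 and 66.3 CPM, and just outside it Coa4 at 11.3 and 14.6 CPM. Just inside the lower limit was Zfp760 at a ratio of 0.768, and just outside it Tdrd3 at 0.770. The balance of the counts depended on the scaling. The median log2 ratio was -0.06, and scaling by TMM, which added 0.05 to each log2 ratio, turned 230 higher and 303 lower into 363 and 196, DESeq2 size factors into 340 and 208, and a total without mitochondrial and ribosomal protein genes into 329 and 248. The genes far from the diagonal were few, as the plot of all genes shows.

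**Figure D2:**
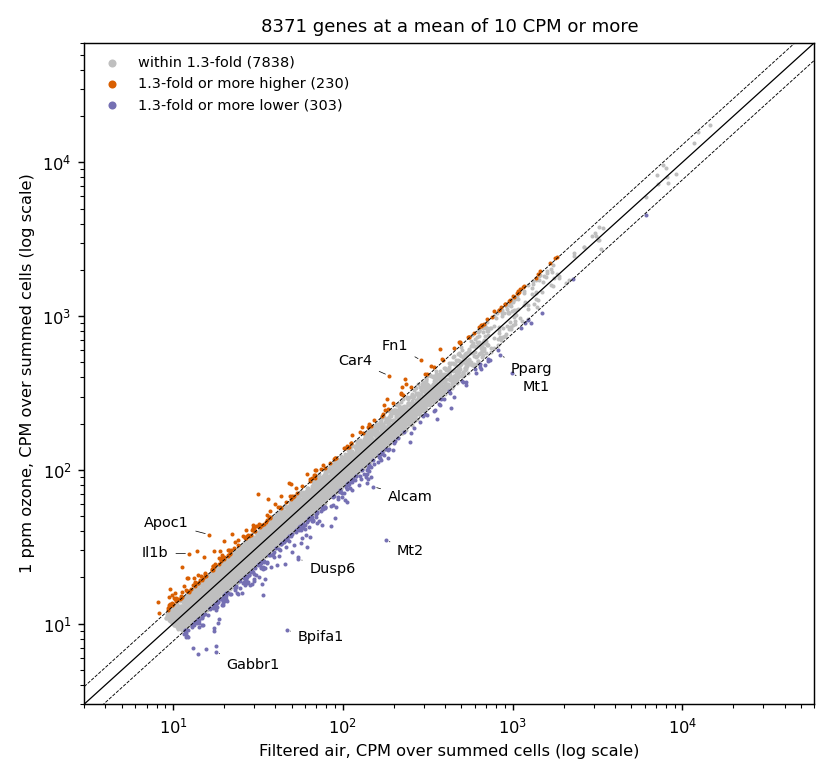
Level of each of 8371 genes in the summed cells of the 1 ppm library against filtered air (CPM, both axes log); the solid line marks equal levels and dashed lines 1.3-fold. The cloud is narrow, with 230 genes above it (orange), led in ratio by Apoc1, Il1b and Car4, and 303 below it (purple), led by Bpifa1 and Mt2.

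The metallothionein genes Mt1 and Mt2 were lower after 1 ppm. Mt1 stood at 992 CPM in air (interval 984 to 1001) and at 425 CPM after ozone (418 to 432), a ratio of 0.428. Mt2 stood at 180 CPM (176 to 184) and 34.9 CPM (33.0 to 36.9), a ratio of 0.194. Because both proteins are coded by neighbouring genes with metal response elements, the binding motif of the zinc sensor MTF1, the 250 bases before each annotated start are shown, from RefSeq on build GRCm38.p6, plus strand, with matches to TGCACNC or TGCGCNC on either strand in capitals.
Mt1, chr8:94178839-94179088: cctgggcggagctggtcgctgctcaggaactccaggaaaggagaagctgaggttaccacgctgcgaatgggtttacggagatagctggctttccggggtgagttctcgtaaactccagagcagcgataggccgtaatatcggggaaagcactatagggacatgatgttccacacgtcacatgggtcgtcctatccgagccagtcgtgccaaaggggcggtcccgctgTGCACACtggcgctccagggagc
Mt2, chr8:94172368-94172617: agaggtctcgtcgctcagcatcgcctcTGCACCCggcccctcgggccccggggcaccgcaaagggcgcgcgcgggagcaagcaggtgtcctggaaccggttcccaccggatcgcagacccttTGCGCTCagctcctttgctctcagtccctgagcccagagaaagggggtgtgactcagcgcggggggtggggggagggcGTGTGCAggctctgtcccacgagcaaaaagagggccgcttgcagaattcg
The Mt1 window held 1 match, which ended 16 bases before the start, and the Mt2 window 3 matches, the nearest 43 bases before it. Of 32851 RefSeq promoter windows of this length 21.4% held at least 1 match and 1.26% at least 3, and of the 18 windows of the metallothionein and zinc list 7 (38.9%) held at least 1. The windows depend on the start that RefSeq gives, and another start would put other letters in view. For Mt1 the start given may lie upstream of the one most transcripts use, so matches nearer that start may be missing from its window. A match is a string of letters and says nothing of whether a factor binds there.

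The difference in Mt1 was seen in the median cell and, by a wider margin, in an upper tail, and that in Mt2 in the tail. The median cell had 291 CPM of Mt1 in air (quartiles 156 and 551) and 218 CPM at 1 ppm (114 and 375), while the 90th percentile was 2426 CPM in air against 680 CPM at 1 ppm. For Mt2 the median was 0 in both libraries, and the 90th percentile was 410 CPM in air against 71.2 CPM at 1 ppm. The tail went with the stress share. In the lowest, middle and highest tertile of stress share Mt1 was at 518, 640 and 1808 CPM in air and at 288, 367 and 598 CPM at 1 ppm. Tertiles were cut within each library, so they are not matched for stress share, here or in the bands below. The highest had a share of 0.0385% in air against 0.0224% at 1 ppm. In the cells left out for their stress share Mt1 reached 8511 CPM in air against 3272 CPM after ozone, and Mt2 reached 2239 and 529 CPM there. The median stress share of those cells was 0.749% in air (99 cells) against 0.181% at 1 ppm (64 cells), so they were not like for like. With the common limit the log2 ratio of Mt1 shrank from -1.22 to -0.93 and that of Mt2 from -2.36 to -1.96, and with the top 25% of each library left out they were -0.84 and -2.07. Within 12 bands of cells by stress share, mitochondrial share, UMIs and cell cycle UMIs the ratios of both genes stayed below 1, between -1.76 and -0.80 for Mt1 and between -3.49 and -1.90 for Mt2. How much of either difference comes from cells with a raised stress share was not tested further.

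Few other genes of metal handling were past 1.3-fold. Of the 19 genes of the metallothionein and zinc list 13 reached a mean of 10 CPM, and Mt1 and Mt2 were the 2 of them past 1.3-fold, with a list median of -0.16 beside -0.06 for all genes. Mtf1, the zinc sensor itself, went from 56.8 to 45.2 CPM and Slc30a7, which moves zinc into the Golgi, from 116 to 96.8 CPM, both short of 1.3-fold. Outside the list the zinc transporter Slc39a12 was at 33.9 CPM in air against 15.3 CPM at 1 ppm, a log2 ratio of -1.14 that was -1.17 with the common limit.

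Antioxidant genes outside the rule were mostly level among the cells kept. The rule leaves cells out by 3 Nrf2 targets, so counts for this list depend on that choice. Of 28 genes on the Nrf2 list, which leaves out the 3 rule genes, 22 reached 10 CPM, 1 was past 1.3-fold higher and none lower, and the median was 0.02. The one was Gstp1, a glutathione transferase, at 10.5 and 14.7 CPM. Fth1, the ferritin heavy chain that stores iron, went from 12397 to 15826 CPM, and Gclm, the modifier subunit of glutathione synthesis, from 72.7 to 59.5 CPM. With the common stress limit 3 genes of this list were past 1.3-fold higher, as the log2 ratio of Fth1 went from 0.35 to 0.44 and that of Blvrb, a biliverdin reductase, from 0.28 to 0.50, and the list median was 0.08. The log2 ratio of Gclm went from -0.29 to -0.12. With no cells left out by stress share it was -0.60, past 1.3-fold lower, and the list median was -0.02. Gclm was raised in the left-out cells, at 835 CPM in air against 262 CPM at 1 ppm. Of the heat shock list 18 of 21 genes and of the iron and haem list 14 of 23 reached 10 CPM, and none of either was past 1.3-fold. For heat shock that 0 depended on the cells left out: with none left out by stress share the log2 ratio of Hsph1 was -0.45 in place of -0.34. For iron and haem that 0 depended on the unequal limits: with the common limit 3 of the 14 were at least 1.3-fold higher, Fth1 and Blvrb among them.

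Some feedback genes of the ERK kinase pathway and some immediate early genes were lower after 1 ppm. Dusp6, the phosphatase that switches off ERK, stood at 54.8 CPM in air (interval 52.7 to 56.9) against 26.3 CPM at 1 ppm (24.7 to 28.1), a log2 ratio of -1.06. Phlda1, another ERK-induced gene, had 89.7 CPM in air against 48.9 CPM after ozone (-0.87). These were the 2 past 1.3-fold among the 5 of 15 list genes that reached 10 CPM. All 5 had ratios below 1, as had 5153 of the 8371 genes considered. Of the 23 immediate early genes 14 reached 10 CPM, 4 were at least 1.3-fold lower and none higher, with a median of -0.21. They were Jun (28.5 and 17.7 CPM) and Fos (78.4 and 56.4 CPM), which together form the AP-1 factor, the zinc finger factor Klf6 (345 and 243 CPM) and the phosphatase Dusp1 (48.0 and 34.7 CPM). Junb (75.8 and 87.5 CPM) and Klf4 (157 and 187 CPM) went the other way without reaching 1.3-fold. Dusp6, Phlda1 and Klf6 kept a ratio below 1 in all 12 bands, and Jun, Fos and Dusp1 in 11. The log2 ratio of Dusp6 lay between -1.13 and -0.81 across bands, and between -1.09 and -1.04 over the ways of leaving cells out by stress share. A stricter set left out the top 5% by UMIs and cells of at least 3 UMIs of any other class's markers. In the 158 air and 77 1 ppm cells left, the log2 ratio of Dusp6 was -0.11 and that of Phlda1 -0.36. Values in this set rest on few UMIs, with Dusp6 and Gstp1 sharing the log2 ratio -0.110355, and no counting interval was computed for them. Immediate early genes also respond to handling of cells, and handling cannot be told apart from exposure here.

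Several other regulators and surface proteins were among the 15 genes most lower. For Gabbr1, a subunit of the GABA-B receptor, the levels were 17.9 and 6.50 CPM, and for Id3, an inhibitor of DNA-binding helix-loop-helix factors, 17.8 and 7.14 CPM. Bach2, a transcriptional repressor, was at 15.7 and 6.83 CPM, and Arhgap22, which switches off the GTPase Rac, at 14.0 and 6.34 CPM. Antxr2, a receptor for collagen VI and anthrax toxin, was at 84.7 and 42.9 CPM, and the adhesion molecule Alcam at 151 and 77.8 CPM. Dusp16, a phosphatase that acts on the kinase JNK, was at 61.9 and 31.6 CPM, and the activation marker Cd83 at 45.7 and 24.3 CPM. Nsmf and Rnf17 completed the list at 18.5 and 10.0 CPM and at 13.1 and 6.92 CPM. For all of these but Arhgap22 the ratio was below 1 in each of the 12 bands, and for Arhgap22 in 11. Dendritic cells also carry Cd83, and the migratory dendritic markers Ccr7 and Ccl22 moved the same way within the members, from 5.70 to 0.58 CPM and from 10.9 to 3.85 CPM. Without the 152 air and 105 1 ppm cells that carried at least 3 UMIs of the scarce markers of another class, the log2 ratio of Cd83 was -0.78 in place of -0.91 and that of Bach2 -1.08 in place of -1.20.

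Bpifa1, a secretory protein of airway epithelium, had the lowest ratio of all, and its size depended on which cells were summed. Its level was 46.7 CPM in air against 9.05 CPM after ozone, a log2 ratio of -2.37. One air barcode gave 54.4% of its UMIs, and without that barcode the air level was 21.3 CPM, still above that at 1 ppm. Leaving out the cells with scarce markers of another class gave -0.28, and taking only cells with at least 10000 UMIs gave -0.21. In barcodes with fewer than 3 macrophage markers and at least 3 airway markers Bpifa1 was at 22983 CPM in air (14 barcodes, median 3272 UMIs) against 22142 CPM at 1 ppm (9 barcodes, median 1024 UMIs). The airway marker Scgb1a1 moved with it among the members, at 54.5 and 27.2 CPM, and the haemoglobin gene Hbb-bs was at 10.6 CPM in air with no UMI at 1 ppm. The part of free RNA or of joined cells in these values was not tested.

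**Figure D3:**
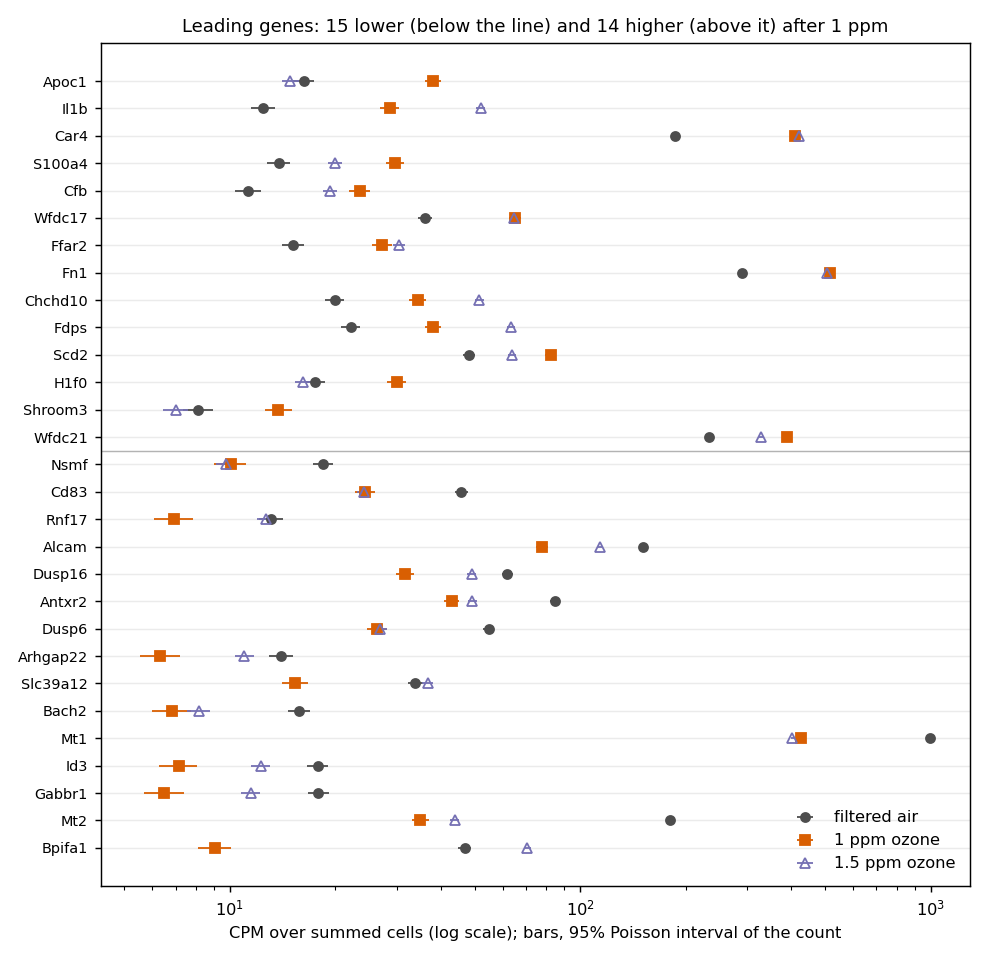
Level in the summed cells (CPM, log axis) of 14 of the 15 genes with the highest ratio of 1 ppm over air (above the line) and the 15 with the lowest (below it), in filtered air (grey circles), 1 ppm (orange squares) and 1.5 ppm (open purple triangles); bars are 95% Poisson intervals. Car4 (186, 411 and 421 CPM), Fn1, Dusp6, Cd83 and Mt1 had near equal levels at both doses, while Apoc1, H1f0, Shroom3, Rnf17 and Slc39a12 at 1.5 ppm lay near or beyond the air level.

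Car4 and Fn1 were higher after 1 ppm. Car4, a membrane-bound carbonic anhydrase found on alveolar macrophages, stood at 186 CPM in air (interval 183 to 190) against 411 CPM at 1 ppm (404 to 417), 2.20-fold higher. The median cell had 91.6 CPM of it in air and 226 CPM at 1 ppm, and the upper quartiles were 250 and 515 CPM. Fn1, fibronectin, a matrix protein of wound repair, stood at 290 CPM (285 to 295) and 516 CPM (508 to 523), 1.78-fold higher, with median cells at 159 and 287 CPM. Both differences were spread over the cells and kept their sign in all 12 bands, with log2 ratios between 0.90 and 1.34 for Car4 and between 0.59 and 1.05 for Fn1. In the cells left out for stress Car4 was at 32.9 CPM in air against 499 CPM at 1 ppm. Those cells were not alike in the 2 libraries, with a median stress share of 0.749% in air against 0.181% at 1 ppm.

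Of the 27 genes of the matrix and repair list 12 reached 10 CPM, and Fn1 and Spp1 were the 2 at least 1.3-fold higher, none being lower. Spp1, osteopontin, was at 234 and 364 CPM. Lgals1 (315 and 408 CPM) and Tgfbi (295 and 374 CPM) were just short of 1.3-fold, and Igf1 had the lowest ratio of the list, at 39.3 and 32.0 CPM. Alveolar macrophage identity outside the rule differed little apart from Car4. Of 31 genes 27 reached 10 CPM, Car4 and the collagen-cleaving cathepsin Ctsk (330 and 474 CPM) were past 1.3-fold higher and none lower, with a median of -0.07. The transcription factor Cebpa (227 and 182 CPM) and the lipid droplet protein Cidec (222 and 173 CPM) had the lowest ratios of this list. Lpl, Cd9 and Itgax, at 2303 and 2471, 3219 and 3809, and 266 and 263 CPM, were within 1.3-fold.

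Inflammatory genes differed in a small number of genes at low level. Il1b, which encodes the cytokine interleukin-1 beta, was at 12.4 CPM in air (interval 11.5 to 13.5) against 28.6 CPM at 1 ppm (26.9 to 30.4), 2.30-fold higher. It was concentrated, with the 10% of 1 ppm cells highest in Il1b holding 93.6% of its UMIs, and its ratio was above 1 in 11 of 12 bands. In the same set of 158 and 77 cells, where values rest on few UMIs, its log2 ratio was 0.19. Of 31 cytokine and chemokine genes 7 reached 10 CPM and Il1b was the only one of them past 1.3-fold; its antagonist Il1rn was at 114 and 90.7 CPM. A part of the barcodes with fewer than 3 macrophage markers (98 of 497 in air and 62 of 310 at 1 ppm) held Il1b at 19.9 CPM in air against 272 CPM at 1 ppm. Their share in the difference among the members was not tested. Pycard, the inflammasome adaptor, was at 61.5 and 94.6 CPM, and the lipopolysaccharide co-receptor Cd14 at 17.2 and 23.7 CPM. The receptors Nlrp3 (46.8 and 35.5 CPM) and Tlr5 (16.1 and 11.3 CPM) were at least 1.3-fold lower. Cfb, complement factor B, was at 11.3 and 23.5 CPM, and Ffar2, a receptor for short-chain fatty acids, at 15.1 and 27.2 CPM. No gene of the type I interferon list was past 1.3-fold among the 7 of 26 that reached 10 CPM.

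Small calcium-binding and secreted proteins were often higher: 7 of the 18 genes of that list that reached 10 CPM, out of 23, were at least 1.3-fold higher, none was lower, and the median was 0.24. S100a4 was at 13.8 and 29.6 CPM, S100a6 at 43.2 and 67.5 CPM and S100a1 at 224 and 344 CPM. The whey acidic protein domain genes Wfdc17 (36.1 and 65.0 CPM) and Wfdc21 (233 and 390 CPM) and the cathepsin inhibitor Cstb (454 and 616 CPM) completed it with S100a8 (9.54 and 14.9 CPM), a calprotectin subunit that neutrophils carry in bulk. The 8 neutrophil markers summed to 67.0 CPM in air against 60.0 CPM at 1 ppm. Lysozyme, Lyz2, was at 7114 and 8285 CPM. Of 29 lysosome genes 28 reached 10 CPM and 4 were at least 1.3-fold higher: Ctsk, Ctsl (143 and 198 CPM), Cd68 (222 and 310 CPM) and Cd63 (185 and 249 CPM).

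Several cholesterol synthesis genes were higher. Of 25 genes 20 reached 10 CPM, 8 were at least 1.3-fold higher against a background of 2.75%, none was lower, and 19 had a ratio above 1, with a median of 0.34. Fdps, which makes farnesyl pyrophosphate, was at 22.1 CPM in air (interval 20.8 to 23.5) against 38.1 CPM at 1 ppm (36.1 to 40.1). Sqle, the squalene epoxidase, was at 12.1 and 19.8 CPM, Pmvk, a mevalonate pathway kinase, at 27.0 and 40.5 CPM, and the demethylase Cyp51 at 32.0 and 44.6 CPM. Also past 1.3-fold were Insig1, the sterol sensor of the endoplasmic reticulum, at 26.5 and 36.8 CPM, with Idi1 (37.1 and 49.1 CPM) and Sc5d (11.1 and 14.6 CPM). With the common stress limit the log2 ratio of Fdps was 0.90 in place of 0.78, that of Sqle 0.82 in place of 0.70, and the list median 0.36. In the left-out air cells Fdps was at 69.5 CPM, above both sets of kept cells. The letters TCACNCCAC of the sterol regulatory element, searched on both strands in the same 250-base windows, were in 1 of the 20 windows RefSeq gives for genes of this list (5%) and in 1.05% of all windows. These covered 17 of the 25 genes, and Fdps and Sqle were not among them. Of the other motifs searched in the same way, the antioxidant response element TGACNNNGC was in 6 of 30 windows of the Nrf2 list (20%) and 10.2% of all, the heat shock element in 2 of 23 of the heat shock list (8.70%) and 0.466% of all, and the interferon-stimulated response element in 8 of 22 of the type I interferon list (36.4%) and 2.98% of all.

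Other lipid genes were mixed. Scd2, a fatty acid desaturase, was at 48.1 and 82.4 CPM and was the only one of 10 fatty acid synthesis genes at 10 CPM past 1.3-fold. Apoc1, an apolipoprotein, had the highest ratio of all, at 16.2 CPM in air (interval 15.1 to 17.4) against 38.0 CPM at 1 ppm (36.0 to 40.1), 2.34-fold. It was carried by few cells, the highest 10% holding 84.6% of its UMIs at 1 ppm. The other targets of the oxysterol receptor LXR were level, with Abca1 at 231 and 235 CPM and Abcg1 at 1884 and 1769 CPM, apart from the GTPase Arl4c at 34.7 and 19.5 CPM. Of 29 genes of lipid uptake, storage and oxidation at 10 CPM, the scavenger receptor Colec12 (49.6 and 81.6 CPM) was past 1.3-fold higher. The peroxisomal thiolase Acaa1b (104 and 63.6 CPM) and the triglyceride-forming Dgat1 (28.7 and 21.6 CPM) were past it lower. This list includes the rule's Marco and Pparg. Pparg was also past 1.3-fold lower and is given only as a description.

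Many nuclear genes of oxidative phosphorylation and many ribosomal protein genes were higher, by small steps. All 46 nuclear genes of oxidative phosphorylation reached 10 CPM, all 46 had a ratio above 1, and 15 were at least 1.3-fold higher, with a median of 0.32. Atp5g1 and Atp5j, subunits of ATP synthase, were at 176 and 245 CPM and at 154 and 210 CPM, and Cox8a and Cox5b, subunits of cytochrome oxidase, at 385 and 523 CPM and at 143 and 194 CPM. The 13 genes of the mitochondrial genome had a median of -0.04 and none past 1.3-fold. Of 29 proteasome genes, 26 had a ratio above 1 and 1, Psmd8 (127 and 177 CPM), was past 1.3-fold. Of 17 glycolysis genes at 10 CPM none was past it. Ribosomal protein genes, looked at after the data were seen, made up 77114 CPM in air against 98192 CPM at 1 ppm, and 34 of 82 were at least 1.3-fold higher and none lower.

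**Figure D4:**
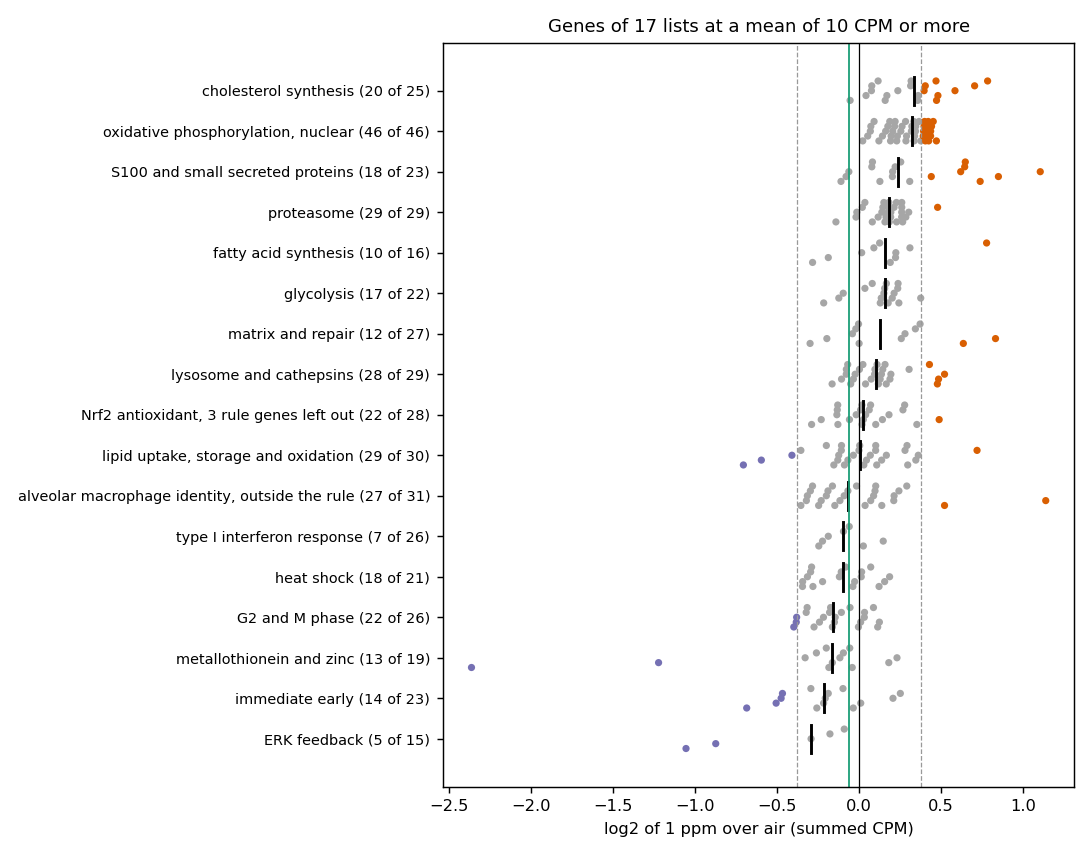
Log2 ratio of 1 ppm over air for the genes of 17 lists that reached a mean of 10 CPM (1 point a gene; in brackets, how many of the list); black ticks are medians, the green line the median of all 8371 genes at -0.06, dashed lines 1.3-fold, orange and purple points past it. The points of oxidative phosphorylation all lie right of 0, those of ERK feedback all left of it, and most lists straddle it.

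The direction of a gene went with its length in the genome. Among genes at least 1.3-fold higher the median genomic span was 4.78 kb, among those lower 67.3 kb, and among all considered 26.9 kb, by RefSeq gene spans of build GRCm38.p6, which matched 98.3% of the genes considered. Of genes under 5 kb 14.9% were higher and 2.17% lower, and of genes of 200 kb or more 0.888% were higher and 16.3% lower. When each ratio was centred on the genes nearest to it in span, a choice made after the data were seen, 142 genes were higher and 173 lower. The median of oxidative phosphorylation then went from 0.32 to 0.20, that of ERK feedback from -0.29 to -0.15 and that of small calcium-binding and secreted proteins from 0.24 to 0.17. Of the 71 named genes past 1.3-fold 15 were no longer past it, among them Cox8a (0.44 to 0.20), Cox5b (0.44 to 0.19), Cd68 (0.48 to 0.24) and Cd14 (0.46 to 0.21). The median of cholesterol synthesis was 0.33, and Car4 was at 1.05, Fn1 at 1.00, Dusp6 at -1.21 and Mt1 at -1.47. The nuclear RNAs Malat1 and Neat1 were at 9233 and 8394 CPM and at 313 and 331 CPM. Whether intron reads or RNA quality set the link to span was not tested.

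**Figure D5:**
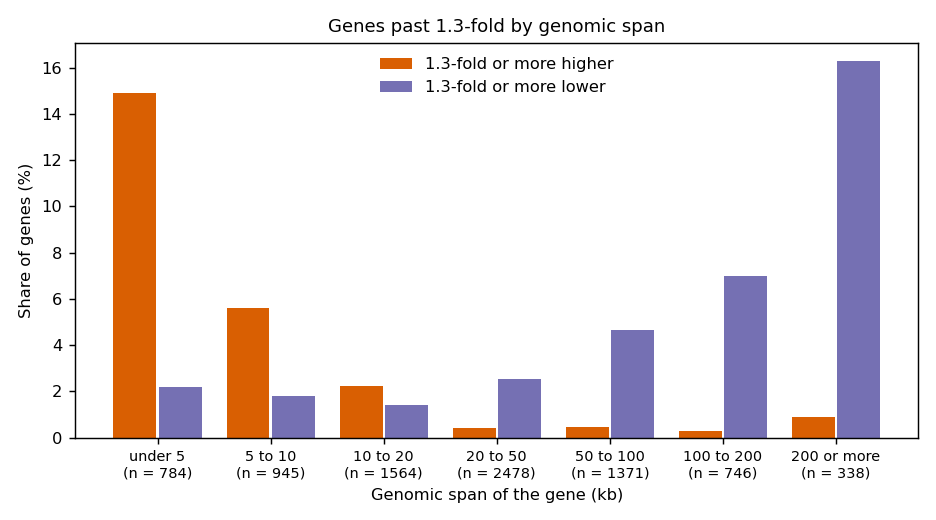
Share of genes (percent) at least 1.3-fold higher (orange) or lower (purple) after 1 ppm, by genomic span of the gene in kb; n is the number of genes in each class. Higher genes go from 14.9% under 5 kb to under 1% from 20 kb on, and lower genes reach 16.3% at 200 kb or more.

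The level of proliferation genes depended on the cells and the scaling used. Of 26 genes of the G2 and M phases 22 reached 10 CPM, 3 were at least 1.3-fold lower (Kif20b, Kif23 and Anln, motor and scaffold proteins of cell division) and none higher, with a median of -0.16. With TMM scaling none was past 1.3-fold, without the cells that carried scarce markers of another class 14 of 21 were lower (median -0.46), and without the top 5% of cells by UMIs 9 of 17 (median -0.38). Mki67 was at 60.2 and 58.0 CPM and Top2a at 84.9 and 70.1 CPM. Each cell was then thinned to 5000 UMIs, which left out no member. After that 12.8% of air cells (11.6 to 14.0%) and 10.96% of 1 ppm cells (9.64 to 12.4%) held at least 3 UMIs of the list. These intervals cover the counting of cells only and are no test, because cells are not replicates. Without thinning the shares were 38.7% and 37.7%. At 1.5 ppm the same share was 24.7% after thinning.

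At 1.5 ppm the leading genes did not all sit beyond their 1 ppm level; that comparison uses the same air library, so the 2 sets of ratios are not independent. Il1b was at 12.4, 28.6 and 52.0 CPM in air, 1 ppm and 1.5 ppm, Spp1 at 234, 364 and 589 CPM and Fdps at 22.1, 38.1 and 63.6 CPM. Car4 was at 186, 411 and 421 CPM and Fn1 at 290, 516 and 506 CPM. Mt1 was at 992, 425 and 403 CPM, Mt2 at 180, 34.9 and 43.8 CPM and Dusp6 at 54.8, 26.3 and 26.9 CPM. Apoc1 at 16.2, 38.0 and 14.9 CPM, Colec12 at 49.6, 81.6 and 36.2 CPM and H1f0, a linker histone, at 17.5, 29.9 and 16.2 CPM were high at 1 ppm alone. Jun at 28.5, 17.7 and 28.4 CPM, Fos at 78.4, 56.4 and 77.8 CPM and Slc39a12 at 33.9, 15.3 and 36.7 CPM were low at 1 ppm alone. With 1 library a dose, such patterns may be of the 1 ppm pool.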

How the data were processed

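Per the file headers the authors made the deposited matrices with Cell Ranger 8.0.0, and each value is an untransformed count of UMIs for 1 gene in 1 barcode. GRCm39 (mm39) is the build per the submitters' processing notes. The handling of intron reads is not stated in the labels or headers used here. No doublet caller was run, so doublets remain. Counts of the selected cells were summed per library and scaled to CPM, and a gene was considered at a mean of at least 10 CPM and called at a ratio of at least 1.3. Intervals are exact Poisson (levels), conditional (ratios) or Clopper-Pearson (shares), at 95%. Calculations used Python 3.11.15, numpy 2.4.6, scipy 1.17.1 and pandas 2.3.3, with edgeR 4.0.16 and DESeq2 1.42.0 for alternative scalings only. Recovery of known ratios was tested on simulated Poisson counts, which hold counting error only and no spread between pools or cells. Genes named are the 15 with the highest and the 15 with the lowest ratio, leaving out mitochondrial, ribosomal, predicted, sex-linked and haemoglobin genes, antigen receptors, genes of the rule and markers of other classes, then up to 4 of each of 31 lists by size of ratio. Some of these genes are not reported here. Further members of a list are named to complete a count or to show a level value, and were chosen after their values were seen. The cells and lists were chosen with earlier results of these data known.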

Additional observations from a re-analysis of the deposited data

How the results depend on the processing

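Over the settings tried, 50 of the 63 recomputed counts stayed within 1.5 times their value, and 13 did not. TMM scaling gave 363 genes higher and 196 lower. A minimum mean of 50 CPM gave 111 and 141, with 44 list genes past 1.3-fold, and a minimum of 1 CPM gave 568 and 816, with 111 list genes. Centring on span gave 142 and 173. Leaving out cells with at least 3 UMIs of any other class's markers together with the top 5% by UMIs left 158 and 77 cells, because macrophages carry several of those markers, and gave 1605 and 1552 genes and 210 list genes past 1.3-fold; in that small set the log2 ratios of Cfb (-0.043), Shroom3 (-0.24), Colec12 (-0.71), Gstp1 (-0.11), Id3 (0.30), Anln (0.0065), Kif23 (0.43) and Kif20b (0.25) changed sign. Restricting the markers to scarce ones, or leaving out only the top 5% by UMIs, settings chosen with those of span and the common 1 ppm limit after the data were seen, changed the sign of no named gene past 1.3-fold. Both kept most of the same cells, so this adds little support. In the small set of 158 and 77 cells 55 of the 71 named genes past 1.3-fold were still past it on the same side. Il1b (0.19), Dusp6 (-0.11) and Phlda1 (-0.36) were not among them, and the median of the G2 and M phase list was 0.44. Values in that set rest on few UMIs and carry no interval, so they cannot show whether a difference is absent there. With centring on span 56 of the 71 were still past 1.3-fold on the same side. Of recomputed values of single genes and list medians, 2814 stayed within the counting interval (genes) or 0.1 (medians) of the value reported and 636 moved further. The other 8 are the genes past 1.3-fold named above as changing sign. Whatever their size, 36 values of named genes and 76 of list medians changed sign. No paired analysis was possible because each group is 1 library. The cause of these changes was not tested beyond the number of genes and cells each setting left. Depth limits genes near 10 CPM, and with 1 pool a group no setting measures the spread between mice.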
